A study of Homo sapiens with 7 samples.

Results

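The 8 genes described here encode transcription factors of the endocrine cells of the pancreatic islet: PDX1, NKX6-1, MAFA, PAX4, NEUROD1, NKX2-2, ISL1 and PAX6. They were chosen by name, and each symbol matched a single gene of the 66025 in the count table. Expression was measured by RNA-seq of total RNA in insulin-expressing β-like cells, which were derived from the H1 human embryonic stem cell line and sorted at stage 6 of differentiation with a dye that binds zinc. The 7 libraries fell into 3 groups, and all of the cells carried a lentiviral, doxycycline (Dox)-inducible shRNA. In iKD2 Dox+ (n = 3, a, b and c) the shRNA targets METTL14 and Dox was given, in iKD2 Dox- (n = 2, b and c) the same line was left without Dox, and in iSCR Dox+ (n = 2, a and b) a scramble shRNA was induced with Dox. METTL14 is a subunit of the enzyme that places N6-methyladenosine (m6A) on mRNA. The targeting arm is 1 shRNA in 1 cell line, so that a difference between iKD2 and iSCR also holds any difference between the transduced lines, and a difference between Dox+ and Dox- also holds any effect of Dox.

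Beta cells form when progenitors that carry PDX1 and NKX6-1 switch on NEUROG3 and then a set of factors that persists in the mature cell. PDX1, NKX6-1 and MAFA bind or maintain genes of insulin production and glucose sensing, and PAX4 acts early, favouring the beta fate. NEUROD1, NKX2-2, ISL1 and PAX6 are used by several islet cell types, alpha cells included, and several of them act at the promoters of both the insulin and the glucagon genes. In human islets MAFA rises late, with maturation of the beta cell.

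The study asked what loss of an m6A writer does to β-like cells, so the letters that the mark favours are shown first. In mRNA, m6A is placed mostly at a short consensus whose commonest form is GGACU, or GGACT in DNA letters. On the sense strand of the GENCODE 29 transcript used for each gene (GRCh38), this motif was found in all 8 members, once in PDX1, 2 times each in MAFA and NKX2-2, 3 times each in NEUROD1 and ISL1, 4 times each in NKX6-1 and PAX4, and 9 times in PAX6. The coding match nearest to the stop codon, where the mark is often dense, is shown for 6 members with 10 bases on either side. Only that match is in capitals, and the 10 bases before it in PAX4 hold a further match in lower case. The sequences run 5′ to 3′ in the sense of the gene:
PAX6: cacttcaacaGGACTcatttcccct
ISL1: acccgcgtgcGGACTgtgctgaacg
NKX2-2: gcccagcagtGGACTtggtgagcgc
NEUROD1: ctcaatcctcGGACTtttctgcctg
NKX6-1: agaagaagcaGGACTcggagacaga
PAX4: cctggactcaGGACTgctttgcctt
These lie in coding exons at chr11:31790006-31790720, minus strand (PAX6, where the 25 bases cross an exon junction and the interval includes the intron), chr5:51389711-51389735, plus strand (ISL1), chr20:21511919-21511943, minus strand (NKX2-2), chr2:181678269-181678293, minus strand (NEUROD1), chr4:84493461-84493485, minus strand (NKX6-1), and chr7:127611157-127611181, minus strand (PAX4).

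The NKX2-2 match is 7 bases from the last coding base, the closest of those shown, and that of ISL1, at 493 bases, is the farthest. By length, PAX4 held 1.99 matches per kb, a density reached by 9.3% of 15326 genes, and NKX6-1 held 1.52 per kb, reached by 20.6%. PDX1 was at the other end with 0.40 per kb, which 84.6% of genes reached. The median gene had 0.94 per kb, and 91.4% of genes had at least 1 match. A match is only a string of letters. The counts used here hold no methylation values.

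Total estimated counts were between 14875429 and 20639156 per library. In CPM (counts at an equal library size, after TMM scaling), METTL14 was at 18.7 (a), 16.3 (b) and 49.1 (c) for iKD2 Dox+, 39.4 (b) and 22.6 (c) for iKD2 Dox-, and 36.1 (a) and 32.2 (b) for iSCR Dox+. Its highest level was thus in the library labelled iKD2 Dox+ c, against the label, and the log2 fold changes of iKD2 Dox+ are also given without that library. INS was at 11365 to 22298 CPM, but GCG (5039 to 12846 CPM) and SST (1988 to 3904 CPM), the hormones of alpha and delta cells, were also high. Other beta markers varied in level, with CHGA at 12446 to 17941 CPM and SLC30A8 at 304 to 700 CPM. IAPP was at only 5.66 to 29.4 CPM and G6PC2 at 0 to 8.92 CPM. Of the acinar markers, CELA3A was at 0 in every library, but CPA1 reached 15.2 CPM and PRSS1 15.4 CPM. In bulk RNA, fewer cells of a type and less RNA per cell cannot be told apart.

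Per kb of exon, the members fell into a high set, a middle gene and a low set. Averaged over the 7 libraries (± SD, n = 7), the level per kb of merged exons was 70.5 ± 10.1 CPM for NEUROD1 and 68.2 ± 11.7 for NKX6-1, which were the highest and differed by less than their spread. PDX1 followed at 52.3 ± 16.2, ISL1 at 48.5 ± 9.94 and NKX2-2 at 47.8 ± 12.2 CPM per kb, again within the spread of one another. PAX6 was at 16.8 ± 3.58 CPM per kb and held sixth place in every library. This place depends on the length used, because the 84 annotated PAX6 transcripts merge to 20812 bases while the longest has 7290. Over its longest transcript PAX6 was at 47.9 ± 10.2 CPM per kb, next to NKX2-2. MAFA, at 6.22 ± 6.51, and PAX4, at 2.47 ± 1.61 CPM per kb, were seventh or eighth in every library, and these neighbours did not differ beyond their spread.

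PDX1, the factor that marks the pancreatic field in the embryo and later drives insulin transcription, was the only beta regulator whose iKD2 Dox+ libraries were all below the controls. Its level was 71.1 (a), 90.3 (b) and 123 CPM (c) for iKD2 Dox+, 133 (b) and 154 CPM (c) for iKD2 Dox-, and 153 (a) and 190.1 CPM (b) for iSCR Dox+. The library labelled iKD2 Dox+ c came nearest to the controls, and iSCR Dox+ b stood above the rest. The group means were 94.8 ± 26.3 (SD, n = 3), 144 ± 14.9 (n = 2) and 171 ± 26.4 CPM (n = 2). Against iSCR Dox+ the log2 fold change was -0.85 (SE 0.30, 95% confidence interval -1.47 to -0.24). It had an unadjusted p of 0.00877 but an edgeR adjusted p of 0.627, so it did not pass the correction over 22926 genes. Against iKD2 Dox- it was -0.60 (SE 0.30, interval -1.22 to 0.01, edgeR adjusted p = 1). The control groups differed by -0.25 (SE 0.33) for iKD2 Dox- against iSCR Dox+.

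The call for PDX1 depended on the tool. DESeq2 gave an adjusted p of 0.0395 against iSCR Dox+, the only 1 of 16 alternatives to pass. Over those alternatives the adjusted p ranged from 0.0395 to 0.841 and the log2 fold change from -1.09 to -0.68. Leaving out the library labelled iKD2 Dox+ c gave -1.09 against iSCR Dox+ and -0.84 against iKD2 Dox-, and leaving out a gave -0.68 and -0.43. Without iSCR Dox+ b, the unadjusted p became 0.0649 (edgeR fit across all genes).

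NKX6-1, which keeps beta cell identity and represses alpha cell genes, did not separate the groups. It was at 207 (a), 165 (b) and 232 CPM (c) for iKD2 Dox+, 232 (b) and 158 CPM (c) for iKD2 Dox-, and 225 (a) and 254 CPM (b) for iSCR Dox+. The lowest value was in iKD2 Dox- c and the highest in iSCR Dox+ b, and each pair of groups overlapped. The log2 fold changes of iKD2 Dox+ were 0.04 (interval -0.48 to 0.57) against iKD2 Dox- and -0.25 (interval -0.77 to 0.27) against iSCR Dox+. These intervals leave room for a change of either sign, and the first value turned to -0.07 without the library labelled iKD2 Dox+ c and to -0.21 without iKD2 Dox- c.

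MAFA, the late activator of insulin transcription, varied widely within each group. Counts ranged from 0 to 785, and the level was 0 (a), 3.56 (b) and 20.02 CPM (c) for iKD2 Dox+, 38.2 (b) and 5.56 CPM (c) for iKD2 Dox-, and 4.74 (a) and 36.9 CPM (b) for iSCR Dox+. Each group thus held low and higher libraries, and all 3 overlapped. The 0 in iKD2 Dox+ a allows up to 3 counts, or 0.179 CPM at this depth, for counting error only. The log2 fold changes were -1.48 (SE 1.80) against iKD2 Dox- and -1.40 (SE 1.80) against iSCR Dox+, with intervals from -5.58 to 2.63 and from -5.51 to 2.70. Without the library labelled iKD2 Dox+ c they were -3.62 and -3.56. Leaving out iKD2 Dox- b turned the first to 0.50, and leaving out iSCR Dox+ b turned the second to 0.73.

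PAX4, which favours the beta over the alpha fate early in endocrine development, was low throughout and was the only member whose estimated change was upward by more than 1 on the log2 scale. It was at 11.8 (a), 7.86 (b) and 10.6 CPM (c) for iKD2 Dox+, 13.3 (b) and 3.38 CPM (c) for iKD2 Dox-, and 1.42 (a) and 2.94 CPM (b) for iSCR Dox+. Both iSCR libraries were thus below all 5 libraries of the iKD2 line, with or without Dox. The log2 fold change against iSCR Dox+ was 2.20 (SE 1.67, interval -1.27 to 5.67, edgeR adjusted p = 0.745) for iKD2 Dox+ and 1.93 (SE 1.74, adjusted p = 0.917) for iKD2 Dox-. Against iKD2 Dox- it was 0.27 (SE 1.54), and it became -0.41 without iKD2 Dox- c. With libraries a and b alone, iKD2 Dox+ was at 2.16 against iSCR Dox+ and 0.23 against iKD2 Dox-.

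**Figure D1:**
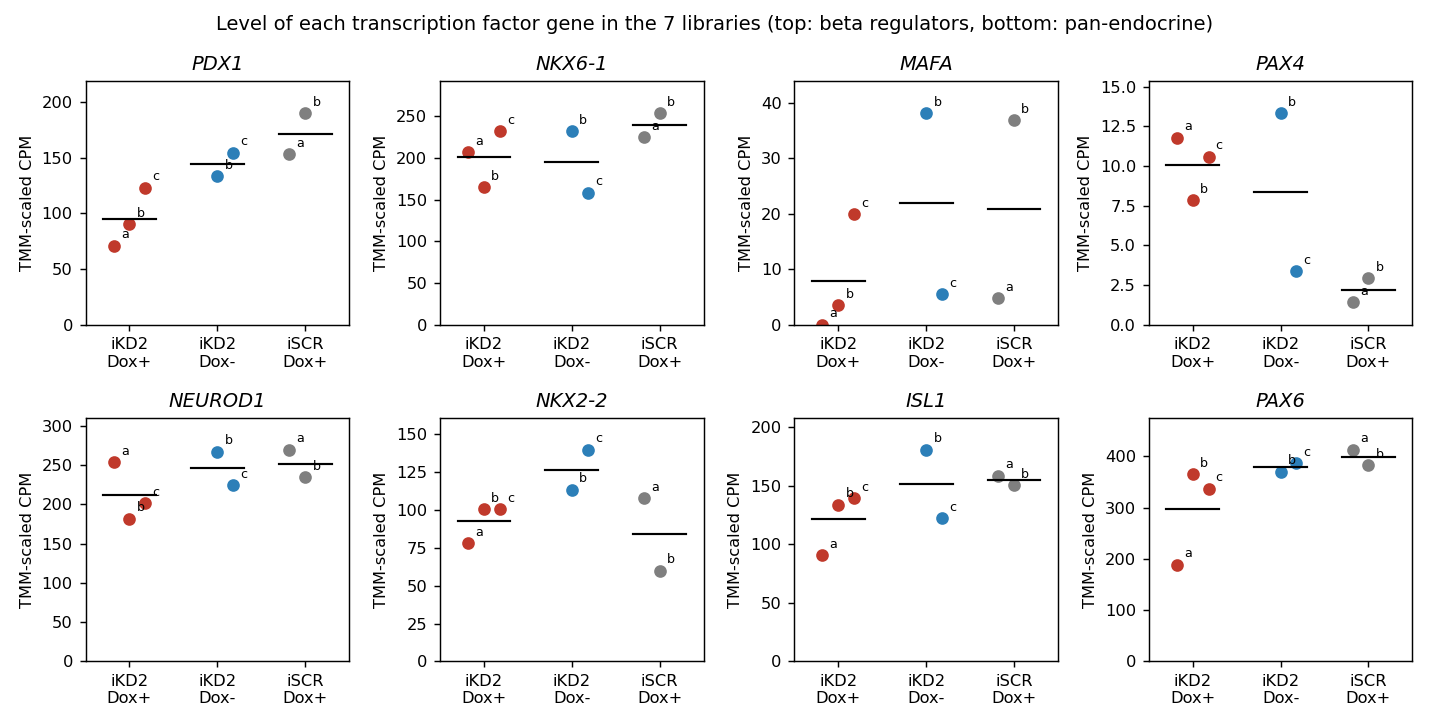
TMM-scaled CPM (y axis, from 0) of the 8 genes in each library, grouped by iKD2 Dox+, iKD2 Dox- and iSCR Dox+ on the x axis. Points are libraries with their letter and the black bars are group means; in PDX1 and PAX6 the 3 iKD2 Dox+ points lie below all 4 control points, while the MAFA points of the groups overlap.

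Among the pan-endocrine factors, PAX6, which activates the insulin and glucagon genes and is needed for several islet cell types, was the only 1 of the 4 to lie below all controls in each iKD2 Dox+ library. It was at 189 (a), 366 (b) and 337 CPM (c) for iKD2 Dox+, 370.3 (b) and 387 CPM (c) for iKD2 Dox-, and 414 (a) and 383 CPM (b) for iSCR Dox+. Library a stood far below the rest, and b was within 5 CPM of the lowest control. The log2 fold changes were -0.35 (SE 0.24, interval -0.85 to 0.16) against iKD2 Dox- and -0.42 (SE 0.24, interval -0.92 to 0.08, edgeR adjusted p = 0.699) against iSCR Dox+. Without iKD2 Dox+ a they were -0.11 and -0.18, and without the library labelled iKD2 Dox+ c -0.45 and -0.52. The 4 controls spanned only 370.3 to 414 CPM.

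ISL1, a LIM-homeodomain factor that islet cells keep after they leave the cell cycle, was at 90.6 (a), 134 (b) and 139 CPM (c) for iKD2 Dox+, 181 (b) and 123 CPM (c) for iKD2 Dox-, and 159 (a) and 151 CPM (b) for iSCR Dox+. The iKD2 Dox+ libraries were all below those of iSCR Dox+ but overlapped with iKD2 Dox-. The log2 fold changes were -0.32 (SE 0.29) and -0.35 (SE 0.29, interval -0.96 to 0.26, edgeR adjusted p = 0.785), in that order against iKD2 Dox- and iSCR Dox+. Without iKD2 Dox+ a they were -0.15 and -0.18, without the library labelled iKD2 Dox+ c -0.44 and -0.47, and without iKD2 Dox- b the first was -0.02.

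NEUROD1, the direct follower of NEUROG3 that also binds the insulin promoter, was at 254 (a), 182 (b) and 201 CPM (c) for iKD2 Dox+, 267 (b) and 225 CPM (c) for iKD2 Dox-, and 269.9 (a) and 234 CPM (b) for iSCR Dox+. The groups overlapped, and library a was the highest of the iKD2 Dox+ libraries here, unlike in PAX6, ISL1 and PDX1. The log2 fold changes of iKD2 Dox+ were -0.21 (interval -0.70 to 0.28) against iKD2 Dox- and -0.25 (interval -0.74 to 0.25) against iSCR Dox+, and without the library labelled iKD2 Dox+ c -0.18 and -0.21.

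NKX2-2, which activates beta cell genes and holds alpha cell genes down, was highest in iKD2 Dox-. It was at 77.8 (a), 100.3 (b) and 101 CPM (c) for iKD2 Dox+, 113 (b) and 139.9 CPM (c) for iKD2 Dox-, and 108 (a) and 59.9 CPM (b) for iSCR Dox+. Every iKD2 Dox- library was above every other library, and iSCR Dox+ b was the lowest of the 7. The log2 fold change of iKD2 Dox+ was -0.45 (SE 0.33, interval -1.13 to 0.24) against iKD2 Dox- and 0.15 (SE 0.33, interval -0.55 to 0.84) against iSCR Dox+, the latter turning to -0.22 without iSCR Dox+ b. Without the library labelled iKD2 Dox+ c they were -0.51 and 0.08. The control groups differed by 0.59 (SE 0.36, interval -0.16 to 1.35, edgeR adjusted p = 0.826).

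**Figure D2:**
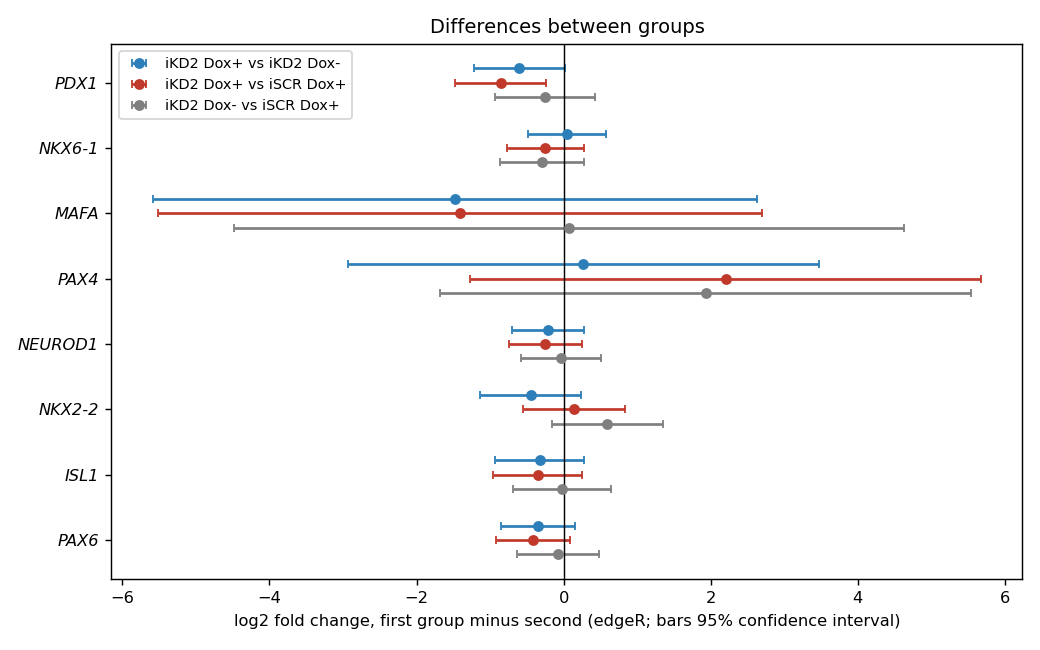
Log2 fold change (x axis, first group minus second) of the 8 genes in the 3 comparisons, with points for the edgeR estimate and bars for its 95% confidence interval. The PDX1 interval against iSCR Dox+, -1.47 to -0.24, is the only one that leaves out 0, and the MAFA and PAX4 intervals are several times as wide as the others.

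Counted over the members, no factor passed edgeR's adjusted p of 0.05 in any comparison, where 0.0393%, 0.0262% and 0.0131% of all genes tested did (in order, iKD2 Dox+ against its own line without Dox, iKD2 Dox+ against the scramble line, and the 2 control groups against each other). At an unadjusted p under 0.05 the members counted were 0, 1 and 0 of 8 with edgeR, 1, 2 and 0 with DESeq2, and 1, 2 and 0 with limma voom. The share of all genes under this p alone was not counted. These counts, and those of the gene lists below, therefore cannot be set against a background. With adjusted p-values DESeq2 called 0, 1 and 0 members, the 1 being PDX1, where it called 1.08%, 3.96% and 2.28% of the genes to which it gave an adjusted p. In voom no member was called, where 0.0349%, 0.0174% and 0.00872% of all genes were. The criterion of the study, an unadjusted p under 0.05 with more than a 1.5-fold change, was applied here to the edgeR p-values. It took in 0, 1 and 0 members, against 3.55%, 6.52% and 4.38% of all genes. The 0 against iKD2 Dox- was close to the limit, with an unadjusted edgeR p of 0.0552 for PDX1. It became 1 with a filter of at least 10 counts in total. All 8 members passed the filter on low counts.

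By sign, 6 of 8 members had a log2 fold change under 0 against iKD2 Dox-, where 49.2% of all genes did. Against iSCR Dox+ it was also 6 of 8, where 46.7% of all genes did, and between the control groups 5 of 8, against 47.3%. The median over the members was -0.34, -0.30 and -0.03, beside 0.01, 0.08 and 0.04 over all genes tested. The first 2 medians over the members were -0.44 and -0.42 with libraries a and b alone as iKD2 Dox+. The first pair of comparisons shares the iKD2 Dox+ libraries, so that these counts are not separate observations.

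By library, the 3 iKD2 Dox+ libraries were all below those of iKD2 Dox- for PDX1, NKX2-2 and PAX6, or 3 of 8 members where 11.6% of genes were. They were all below those of iSCR Dox+ for PDX1, ISL1 and PAX6, again 3 of 8 where 9.23% of genes were. For PDX1 and PAX6, 2 of 8, they were below all 4 controls, as were 2.83% of genes. PAX4 went the other way, with each iKD2 Dox+ library above those of iSCR Dox+. The share of all genes on that side was not counted.

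Library iKD2 Dox+ a was the lowest of the 7 for PDX1, MAFA, ISL1 and PAX6. These are 4 of 8 members, and this library was the lowest for 13% of all genes. Library b was the lowest for NEUROD1 alone, where the share over all genes was 7.84%, and the library labelled iKD2 Dox+ c for no member, where the share was 8.31%. Relative to the mean of the 4 controls, iKD2 Dox+ a held 45.1% of PDX1 and 48.7% of PAX6, but 102% of NEUROD1 and 95.2% of NKX6-1. In the library labelled iKD2 Dox+ c, with the highest METTL14, PDX1 stood at 78.0% and PAX6 at 86.8%. The members thus did not move together within a library.

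**Figure D3:**
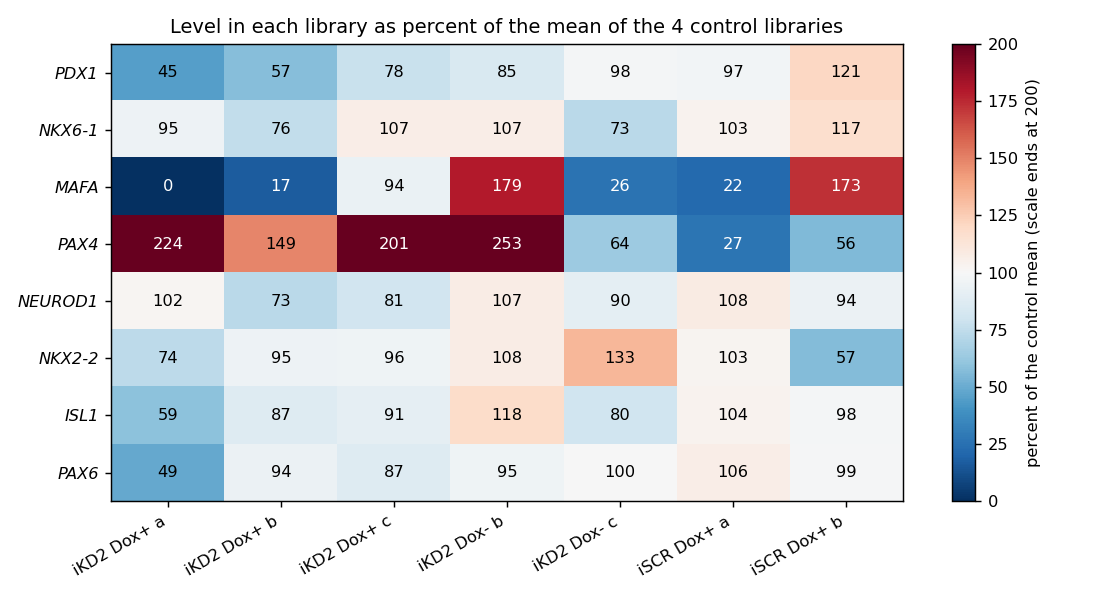
Level of each gene (rows) in each library (columns) as percent of the mean of the 4 control libraries, with the percent printed in each cell and a colour scale that ends at 200. The lowest cells of PDX1, MAFA, ISL1 and PAX6 are in iKD2 Dox+ a. MAFA is also low in iKD2 Dox+ b (16.6), iKD2 Dox- c (26.0) and iSCR Dox+ a (22.2). PAX4 is above 100 in all iKD2 Dox+ libraries and below it in iSCR Dox+.

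The beta regulators among the members (PDX1, NKX6-1, MAFA and PAX4) were summed as CPM per kb of merged exons. The sum was 99.4 (a), 93.5 (b) and 136 (c) for iKD2 Dox+, 148 (b) and 116 (c) for iKD2 Dox-, and 136 (a) and 174 (b) for iSCR Dox+. Libraries a and b of iKD2 Dox+ were the lowest, and the library labelled iKD2 Dox+ c lay among the controls, so that the groups overlapped. No test was made on this sum, which is a score over chosen genes.

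Of the regulators of the alpha cell, IRX1, IRX2 and POU3F4 are described here. POU3F4, a POU domain factor, did not pass the filter. Neither IRX1 nor IRX2, both Iroquois homeobox genes, was called by edgeR or voom in any comparison, and DESeq2 called IRX1 against iSCR Dox+ only. At an unadjusted p under 0.05 edgeR counted 1 of the 2 against iKD2 Dox-, 2 against iSCR Dox+ and 1 between the control groups.

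IRX1 was at 176 (a), 205 (b) and 161 CPM (c) for iKD2 Dox+, 281 (b) and 267 CPM (c) for iKD2 Dox-, and 245 (a) and 370.3 CPM (b) for iSCR Dox+. Each iKD2 Dox+ library was below each control. Its log2 fold change was -0.60 (SE 0.24, interval -1.10 to -0.11, edgeR adjusted p = 1) against iKD2 Dox- and -0.77 (SE 0.24, interval -1.26 to -0.27, adjusted p = 0.519) against iSCR Dox+, and without iSCR Dox+ b the second was -0.44. Without the library labelled iKD2 Dox+ c they were -0.53 and -0.70. IRX2 was at 336 (a), 284 (b) and 191 CPM (c) for iKD2 Dox+, 233 (b) and 279.5 CPM (c) for iKD2 Dox-, and 472 (a) and 316 CPM (b) for iSCR Dox+. The iKD2 Dox+ libraries overlapped those of both control groups, with log2 fold changes of 0.08 (SE 0.25) and -0.54 (SE 0.25, edgeR adjusted p = 0.699), or 0.27 and -0.35 without the library labelled iKD2 Dox+ c.

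**Figure D4:**
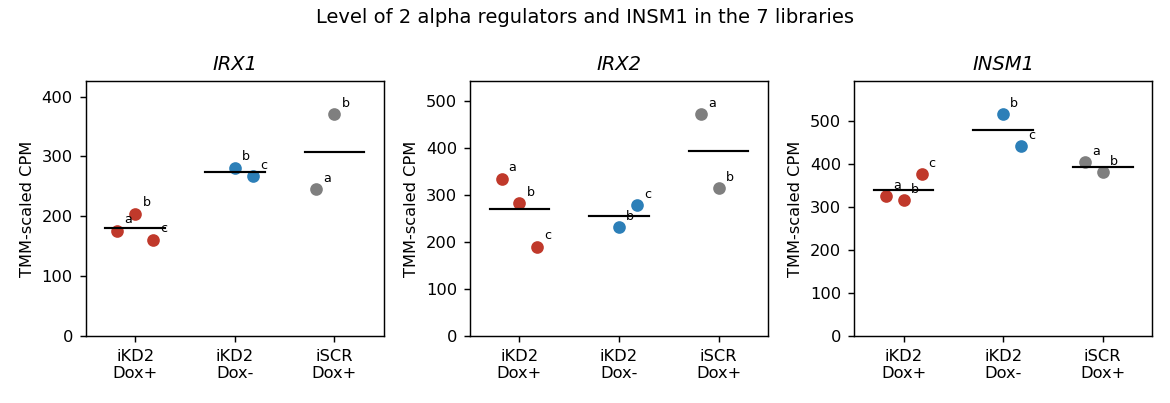
TMM-scaled CPM (y axis, from 0) of IRX1, IRX2 and INSM1 in each library by group, with points for libraries, their letters beside them, and black bars for group means. The 3 iKD2 Dox+ points lie below all 4 control points in IRX1 and INSM1, and overlap with them in IRX2.

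A further 15 transcription factors of endocrine development, from NEUROG3 to PROX1, all passed the filter, and edgeR, DESeq2 and voom each called 0 of them. At an unadjusted p under 0.05 edgeR counted 1, 0 and 2 in the 3 comparisons and DESeq2 counted 4, 0 and 3. Their median log2 fold change was -0.19 against iKD2 Dox- and 0.21 against iSCR Dox+, so that the direction depended on the control. INSM1, a zinc finger factor of endocrine differentiation, was the most abundant and the only 1 of the 15 whose iKD2 Dox+ libraries (325, 315 and 376 CPM) were all below the controls (514, 441, 404 and 381 CPM). Its log2 fold change was -0.50 (SE 0.20) against iKD2 Dox- and -0.21 (SE 0.20) against iSCR Dox+, or -0.58 and -0.30 without the library labelled iKD2 Dox+ c.

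Of 12 genes known as targets of these factors or as hormones, 11 passed the filter (SLC2A2 did not) and 1 was called by edgeR. INS, whose promoter binds PDX1, MAFA, NEUROD1 and PAX6, was at 11625 (a), 13581 (b) and 11365 CPM (c) for iKD2 Dox+, 17393 (b) and 14629.7 CPM (c) for iKD2 Dox-, and 22298 (a) and 21507 CPM (b) for iSCR Dox+. It fell against iSCR Dox+, by 0.85 on the log2 scale (SE 0.10, edgeR adjusted p = 4.71e-04), and stayed past the threshold in all 7 fits that left out 1 library (-0.80, adjusted p = 0.00618, without the library labelled iKD2 Dox+ c). Against iKD2 Dox- the log2 fold change was -0.39 (SE 0.10, adjusted p = 0.451), or -0.35 without the library labelled iKD2 Dox+ c, and iKD2 Dox- differed from iSCR Dox+ by -0.45 (SE 0.12, adjusted p = 0.614). At an unadjusted p under 0.05 the list counted 3, 1 and 3 genes with edgeR. DESeq2 called 0, 1 (INS) and 2 (PCSK1 and INS), and voom called 0, 1 (INS) and 1 (INS). Both tools thus also called INS between the control groups. The median of the list was -0.25 against iKD2 Dox- and 0.25 against iSCR Dox+, so INS did not stand for the rest.

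The summed levels of cell type markers were compared between iKD2 Dox+ and the 4 controls as well. The sums did not overlap for 3 lists. Of 4 ductal markers (KRT19, SOX9, CFTR and KRT7) the summed level was 809 to 943 CPM in iKD2 Dox+ and 419 to 557 CPM in the controls, and CFTR was at 0 in iSCR Dox+ a. The sum of 5 beta markers (INS, IAPP, CHGA, SLC30A8 and G6PC2) was 24373 to 28401 CPM in iKD2 Dox+ and 32477 to 38739 CPM in the controls. INS and CHGA made up most of it. Against iSCR Dox+ the log2 fold changes of IAPP (0.38), SLC30A8 (0.25) and G6PC2 (2.29) were above 0. Against iKD2 Dox- they were 0.32, -0.55 and 0.06. The gamma and epsilon markers PPY and GHRL summed to 40.1 to 62.1 CPM in iKD2 Dox+ and 65.9 to 100.5 CPM in the controls, but GHRL alone overlapped with the controls. The other lists overlapped. The sum of 4 alpha markers was 6339.9 to 11268 CPM in iKD2 Dox+ and 10731.5 to 14997 CPM in the controls, and that of 3 proliferation markers was 357 to 480.2 and 149 to 379 CPM. The delta, enterochromaffin and pluripotency sums overlapped too, and the 3 acinar markers summed to 6.82 to 16.2 CPM over all 7 libraries.

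Of the single markers outside the gene lists above, 6 had each iKD2 Dox+ library on 1 side of all 4 controls. Over all genes, 2.83% were below all 4 controls, and the share above them was not counted. The 6 therefore cannot be set against a background. KRT19, a keratin of duct cells, and SOX9, a factor of duct cells and pancreatic progenitors, were higher, with log2 fold changes against iSCR Dox+ of 0.78 (SE 0.21) and 0.80 (SE 0.31), or 0.73 and 0.90 without the library labelled iKD2 Dox+ c. TOP2A, a topoisomerase of dividing cells, was also higher, at 0.72 (SE 0.40), or 0.70 without that library. Against iKD2 Dox- TOP2A was at 0.31 (SE 0.40). Its value against iSCR Dox+ was 0.19 without iSCR Dox+ b, where TOP2A was at only 30.6 CPM. Lower were CHGA, a protein of endocrine secretory granules, at -0.31 (SE 0.10), DDC, an enzyme of serotonin and dopamine synthesis, at -0.58 (SE 0.22), and PPY, the hormone of gamma cells, at -1.13 (SE 0.53). Without the library labelled iKD2 Dox+ c these were -0.29, -0.61 and -1.20. No adjusted p of edgeR for the 6 passed the threshold in any comparison. The part of these differences in the levels of PDX1, PAX6 and IRX1 was not tested.

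Across the 7 libraries the members were compared with one another on log2(CPM + 1), as a description of 28 pairs that share libraries and depth. The highest Pearson correlations were 0.828 for ISL1 and MAFA, 0.823 for ISL1 and PAX6, and 0.791 for PDX1 and PAX6, all 4 genes lowest in iKD2 Dox+ a. The lowest was -0.663 for PDX1 and PAX4. The 6 pairs of beta regulators spanned this lowest value and 0.737 for PDX1 and MAFA, with 0.528 for NKX6-1 and MAFA and 0.342 for PDX1 and NKX6-1.

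Among 8604 genes with a mean of at least 20 CPM, those most like each member over the 7 libraries were PNPLA8 for PDX1 (Pearson 0.978), NPM1 for NKX6-1 (0.952), ICA1 for NEUROD1 (0.966), GDAP2 for NKX2-2 (0.980), UTP6 for ISL1 (0.963) and ZNF48 for PAX6 (0.994). Next came BBS9 and P4HA2, ARIH1 and HLCS, DPYSL4 and AGAP1, SMPD3 and MICAL2, GCG and NETO1, and SGPP2 and SEC61B, in the same order. GCG, the glucagon gene, was thus second for ISL1 at 0.957. These are descriptions of 7 points and carry no test. None of the members with a mean of at least 20 CPM was among the 3 genes most like another. MAFA and PAX4 had lower means and were left out of this search.

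Some of the counts are less certain than others. PDX1, NKX6-1, MAFA and NKX2-2 had whole counts in every library, whereas NEUROD1 counts were not whole in 7 libraries, PAX6 in 5, PAX4 in 3 and ISL1 in 1, which means that reads were divided there between transcripts of different genes. NEUROD1 shares 236 exonic bases with CERKL on the same strand. PAX6 overlaps ELP4 by 5241 bases and PAUPAR by 191 on the opposite strand, and NKX2-2 overlaps NKX2-2-AS1 by 638. Since the strand setting of the counting was not stated, reads of these partners cannot be told apart from those of PAX6 and NKX2-2. The biological coefficient of variation in the edgeR fit was 0.27 to 0.32 for the 6 more abundant members, but 1.09 for PAX4 and 1.28 for MAFA.

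Gene positions in GENCODE 29 (GRCh38) are chr13:27920020-27926231 for PDX1, chr4:84491987-84498450 for NKX6-1, chr7:127610292-127618114 for PAX4, chr2:181673088-181680876 for NEUROD1, chr20:21511010-21514026 for NKX2-2, chr5:51383391-51394738 for ISL1 and chr11:31784779-31818062 for PAX6, and MAFA lies on chromosome 8. PDX1 and ISL1 are on the plus strand and the others on the minus strand.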

How the data were processed

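Total RNA of sorted β-like cells was made into libraries with a stranded kit and sequenced as paired-end reads. The authors trimmed reads with fastp, quantified transcripts with kallisto and summed them per gene with tximport, so that the deposited values are estimated counts per Ensembl gene, not scaled for depth or length. A read that fits several genes is divided between them. Versions, genome build, annotation and strand setting were not given in the sources used here.

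Groups were taken from the sample labels. The study describes independent biological samples, but nothing in the labels ties a library to its own culture, so p-values measure only the spread between these libraries. Rounded counts of the 22926 genes that filterByExpr kept were given TMM factors, and the robust quasi-likelihood test of edgeR 4.0.16 (R 4.3.3) was run on 1 fit of the 3 groups. Adjusted p-values are Benjamini-Hochberg values over all genes tested, with calls at 0.05, and SE is the log2 fold change over the root of F. Tests are two-sided. Alternatives were DESeq2 1.42.0, voom of limma 3.58.1, other scalings and filters, a replicate block, fits restricted to the groups compared, and each library left out over the same genes. In a single draw of simulated counts with known changes, DESeq2 made many more false calls than edgeR or voom. That draw took its spread from the trend of the edgeR fit and was read for iKD2 Dox+ against iSCR Dox+ only. It therefore cannot show whether a DESeq2 call in the real data is false.

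The 8 members, the gene lists, the markers and the tests were chosen with earlier results of these data known. Outside the members the text names METTL14, list genes past the threshold or whose iKD2 Dox+ libraries lie on 1 side of all 4 controls, the most abundant gene of a list, and, for members with at least 20 CPM on average, the 3 genes with the highest Pearson correlation. IRX2, IAPP, SLC30A8, G6PC2, CPA1, PRSS1 and the genes called by DESeq2 were named after their values were seen. So were genes named as missing the filter. Some genes of the lists and markers are not reported here, so the lists are given without them, and a planned ratio of beta to alpha regulators was left out with its alternatives. Coordinates, lengths and transcript sequences are from GENCODE 29, found by gene ID. PCR copies are not independent molecules, so that count limits cover counting error only. Same-letter libraries of different groups did not deviate together (Pearson correlation of deviations -0.034 to 0.023 over 8604 genes), so the letters were not taken as pairs.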

Additional observations from a re-analysis of the deposited data

How the results depend on the processing

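Of the 8 factors, none passed in any comparison under any alternative except PDX1 with DESeq2 (1 member against iSCR Dox+). Over all genes, edgeR called 9, 6 and 3 (iKD2 Dox+ against iKD2 Dox-, then against iSCR Dox+, then the controls against each other). It called 51, 66 and 32 with no filter, 55, 75 and 32 with a minimum total of 10 counts, and 2, 3 and 1 with a minimum mean of 5 CPM. DESeq2 called 225, 824 and 495. A fit of only the control groups called 0. Leaving out 1 library gave 3 to 24, 3 to 187 and 2 to 151, the highest without iSCR Dox+ b, where the 1 iSCR library left is assumed to vary like the other groups. The causes were not tested.

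With the replicate letter as a block the counts were 18, 15 and 8 (76 for a block in iKD2 only), and no member was called. In that block, for iKD2 Dox- against iSCR Dox+, MAFA turned to -2.17 and NEUROD1 to 0.15. In the fits without 1 library, direction turned for MAFA (-3.62 to 0.50 against iKD2 Dox-, -3.56 to 0.73 against iSCR Dox+, -1.91 to 2.21 between controls), NKX6-1 (-0.21 to 0.34) and PAX4 (-0.41 to 1.58) against iKD2 Dox-, NKX2-2 against iSCR Dox+ (-0.22 to 0.63), and, between controls, NEUROD1 (-0.17 to 0.084) and ISL1 (-0.33 to 0.23). PDX1 and PAX6 kept their direction in every alternative. Counts under about 100 in several libraries limit MAFA and PAX4.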
